A study of Mus musculus with 2 samples.

Results

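The cells described here were taken from mouse retina at postnatal day 6 by a rule on 5 genes, Prdm1, Epha8, Ccdc136, Fhod3 and Inhbb, and are called the members. A member had at least 1 unique molecular identifier (UMI, a count of captured RNA molecules) for at least 2 of these genes. It also had fewer than 3 genes of a rod list (Nrl, Nr2e3, Pdc, Sag, Samd7, Prph2), fewer than 3 of a cone list (Arr3, Gnat2, Opn1sw, Pde6h, Pde6c), fewer than 3 of a precursor list (Fabp7, Angpt1, Neurod4, Robo2, A830036E02Rik), and summed Pecam1, Cdh5, Cldn5, Kdr and Flt1 under 500 CPM (UMIs of a gene scaled to 1000000 UMIs in all). The rule found 207 of the 10347 cells that passed the filters on depth and mitochondrial UMIs. The working name for such cells was Prdm1 Epha8 photoreceptor precursors. Their markers matched that name in part only, so they are described by the rule and by the genes that lead each group.

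The study sequenced 2 single-cell libraries made with a 10x Genomics Chromium kit that reads transcript 3′ ends, 1 per genotype. The control mice were Alk1 f/f, with both copies of the receptor gene Alk1 (symbol Acvrl1) flanked by loxP sites, and the Alk1 ECKO mice were Alk1 f/f Cdh5 CreERT2, in which the promoter of the endothelial cadherin gene Cdh5 drives an inducible recombinase. The recombinase is thus directed to endothelial cells and not to the neurons described here. Dissociated retinal cells had been enriched with magnetic beads against the endothelial protein CD31, so a share of cells here is not the share in the tissue. The number of animals per library is not given in the sources used here.

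With 1 library per genotype no test between genotypes was possible, and no p-value is given. Intervals are at 95% and cover counting error only. The control library gave 182 members among 7583 cells, or 2.40% (2.07 to 2.77), and the Alk1 ECKO library 25 among 2764, or 0.904% (0.586 to 1.33). Among cells with under 500 endothelial CPM the shares were 2.75% (2.37 to 3.17) and 1.88% (1.22 to 2.76), and among cells with at least 2 of the 5 genes they were 6.07% (5.24 to 6.98) and 6.53% (4.27 to 9.49). The control members summed to 824231 UMIs with a median of 3625 per cell, and the Alk1 ECKO members to 216957 UMIs with a median of 4546. The 5 deepest Alk1 ECKO members held 61.0% of that library's member UMIs, against 10.6% for the 5 deepest control members. The libraries shared 20 barcodes, none of them of a member. Acvrl1 had 0 UMIs in the control members, which allows up to 4.48 CPM, and 5 UMIs in 2 Alk1 ECKO members. In cells with at least 500 endothelial CPM Acvrl1 was at 80.1 CPM (75.7 to 84.6) in the control library and 114 CPM (111 to 117) in the Alk1 ECKO library. Which exons are removed is not given in the sources used here and the kit reads transcript ends, so this level does not check the labels.

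Rods and cones arise from dividing retinal progenitors through postmitotic precursors that express the homeobox gene Otx2 and then its relative Crx, both activators of photoreceptor genes. Prdm1, also called Blimp1, encodes a zinc finger repressor that is switched on for a time in such precursors and holds back the bipolar cell programme. Bipolar cells, the interneurons that carry photoreceptor signals inward, are born from Otx2-expressing precursors in the same first postnatal week. The precursors that turn to the rod fate switch on Nrl and then Nr2e3.

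The letters bound by the Crx and Otx2 proteins can be looked for in the promoters of these genes. RefSeq promoters on GRCm38.p6 hold 250 bases before each annotated start and the first bases after it. TAATCC, a core of the Crx and Otx2 motif, was present on either strand in 2054 of 32851 promoters (6.25%). It had no match in the promoters of Prdm1, Epha8, Ccdc136 and Inhbb, while Fhod3 had no entry. The Crx promoter had 2 matches, and the stretch that spans them is shown because Crx was among the lineage genes that tell the member groups apart. It covers chr7:15879961-15880059 on the minus strand, with each match in capitals as GGATTA, the same letters read on the other strand, at -94 and -21 relative to the annotated start.
Crx: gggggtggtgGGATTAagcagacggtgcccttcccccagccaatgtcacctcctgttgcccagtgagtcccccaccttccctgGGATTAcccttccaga
Isl1, a homeobox gene of bipolar, amacrine and ganglion cells, had 1 match, and 1 of the 4 Otx2 promoters had 1. CAGATG, an E-box that proteins of the Neurod family bind, was in 14.4% of all promoters, and AGTGAAAG, bound by Prdm1, in 1.09%. None of the promoters of Prdm1, Epha8, Ccdc136 and Inhbb held either. A match describes letters only and is not a bound site.

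The 5 genes of the rule chose the members, so their levels are a description. Prdm1 (chromosome 10, 44437177 to 44528501 in mm10) was found in 142 of the 207 members (68.6%), at 258 CPM (225 to 296) in the control library and 106 CPM (67.2 to 159) in the Alk1 ECKO library. Ccdc136, which encodes a coiled-coil protein, was in 123 members, at 193 and 96.8 CPM. Epha8, an Eph receptor tyrosine kinase gene (chromosome 4, 136929419 to 136956816), was in 109 members, at 141 and 83.0 CPM. Fhod3, a formin that organises actin, was in 67 members, at 95.8 and 23.0 CPM. Inhbb, which encodes the activin and inhibin subunit beta B, was in 58 members, at 76.4 and 27.7 CPM. Over all members every level was lower in Alk1 ECKO, and 1 UMI there was worth 4.61 CPM, against 1.21 CPM in control. Cluster 20, described further on, held 38.2% of the Alk1 ECKO member UMIs. Among members of clusters 4, 8 and 5 alone Epha8 went the other way, with a log2 ratio of 0.51 (-0.35 to 1.28). Prdm1, Ccdc136, Fhod3 and Inhbb stayed lower in these clusters, with log2 ratios of -0.56, -0.25, -0.67 and -0.42. Each of these intervals spanned no change. Most positive cells held a single UMI of the gene, 54.9% for Prdm1, 68.3% for Ccdc136, 74.6% for Fhod3, 81.7% for Epha8 and 86.2% for Inhbb. Free RNA can give such UMIs: in the 69 control cells of the microglia-like cluster 12, with a median of 10410 UMIs, Prdm1 was found in 13.0%, Ccdc136 in 7.25%, Fhod3 in 5.80%, Epha8 in 4.35% and Inhbb in 1.45%. In the 969 control cells with at least 500 endothelial CPM, at a median of 7932 UMIs, the shares were 25.7%, 20.6%, 6.50%, 4.95% and 4.95% in the same order. Its part in membership was not tested. By number of rule genes, 142 members had 2 of the 5 genes, 46 had 3, 18 had 4 and 1 had all 5.

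These genes were also found in the cells that the rule set apart. Prdm1 stood at 240 CPM in control cells with 3 or more rod list genes, 204 CPM in those with 3 or more cone list genes and 276 CPM in those with 3 or more Fabp7 list genes. Ccdc136 was at 692 CPM in the control cone list cells. Epha8 was at 145 CPM in the Fabp7 list cells, close to the members, and at 71.8 CPM in the rod list cells. Rule genes are therefore shared with neighbouring photoreceptor classes, and the 3 excluded lists decide which of their carriers are members.

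Otx2, Crx and Neurod1, the last a basic helix-loop-helix gene that photoreceptors need, took no part in the rule. At least 1 of them had a UMI in 176 of 182 control members, or 96.7% (93.0 to 98.8), and in 18 of 25 Alk1 ECKO members, or 72.0% (50.6 to 87.9). All 3 were found together in 107 control members (58.8%, 51.3 to 66.0) and 7 Alk1 ECKO members (28.0%, 12.1 to 49.4). Otx2 was at 1313 CPM (1236 to 1393) and 313 CPM (243 to 397), Neurod1 at 1080 CPM (1010 to 1153) and 429 CPM (346 to 525), and Crx at 292 CPM (257 to 332) and 78.4 CPM (45.6 to 125). The orphan nuclear receptor gene Rorb, needed for rods, was at 1845 CPM and 742 CPM. All 4 levels were lower in the Alk1 ECKO library, where 7 of the 25 members had none of Otx2, Crx and Neurod1, 4 of them in cluster 20 and 2 in cluster 16, which are described further on. With each cell thinned to 1500 UMIs, 77.5% of control members had an Otx2 UMI (91.8% before thinning). The share was 3.13% (14.5% before thinning) in control cells of cluster 12. It was 11.0% (26.3% before thinning) in control cells with at least 500 endothelial CPM. Otx2 did not set the members apart from their neighbours, at 71.8% of rod list, 70.0% of cone list and 86.8% of Fabp7 list control cells after thinning. Of control cells that met the other conditions with 0 rule genes, 67.1% had a UMI of Otx2, Crx or Neurod1, and Rorb was at 1533 CPM in these cells. After thinning Rorb was found in 89.6% of control members and 61.6% of control cells with at least 500 endothelial CPM, so it set the members apart less than Otx2 did.

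Photoreceptor markers were thus common, but so were markers of other retinal neurons. Isl1 was in 39 control and 4 Alk1 ECKO members. Tfap2b, a transcription factor gene of amacrine and horizontal cells, was in 10 control and 3 Alk1 ECKO members. A total of 134 control members (73.6%) and 18 Alk1 ECKO members (72.0%) had neither.

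To place the members without using the rule, all cells were clustered on genes that left out every gene of the rule and its excluded lists. The members fell into 14 of 29 clusters, numbered by size. Cluster 4 held the most, 82 control and 4 Alk1 ECKO members (41.5% of all). Cluster 8 held 36 and 5, cluster 5 held 18 and 6, cluster 16 held 13 and 3, and cluster 14 held 12 and 0. Clusters 4, 8 and 5 together held 151 members (72.9%), 136 control and 15 Alk1 ECKO. In the control library 45.1% (37.7 to 52.6) of members lay in cluster 4 and in the Alk1 ECKO library 16% (4.54 to 36.1), 1 library each, so this sets 2 libraries side by side and not the genotypes.

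**Figure D1:**
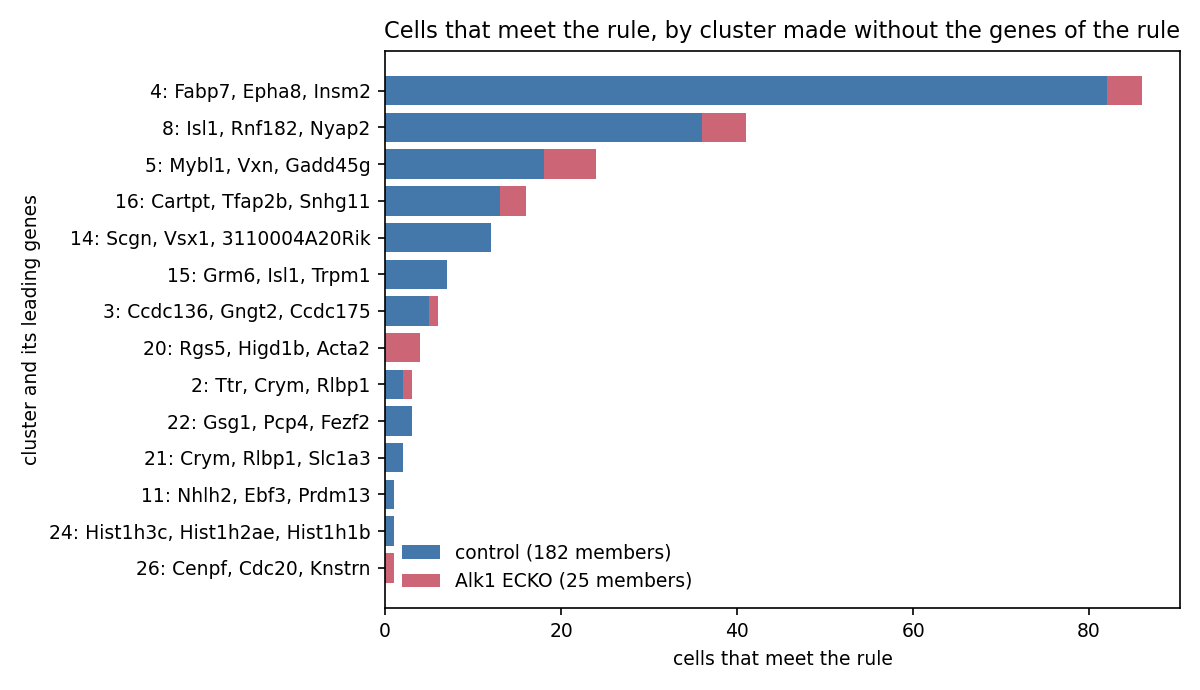
Number of members (x axis) in each cluster that held any (y axis, with the 3 leading genes of the cluster), control cells in blue and Alk1 ECKO cells in red. Cluster 4 holds 86 members, cluster 8 holds 41, and the 4 members of cluster 20, led by Rgs5, all come from Alk1 ECKO.

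The 82 control members in cluster 4 had higher levels of Gngt2, Otx2, Neurod1 and Crx than the control members of clusters 8, 5, 16 and 14. Gngt2, a G protein gamma subunit gene of cones that is also transcribed in early photoreceptors and was not in the rule, was at 2471 CPM in 80 of the 82 cells, against 290 CPM in all other control members. At 1500 UMIs per cell it was found in 90.8% of these members, 30.9% of the other control members, 29.7% of control cells of cluster 12 and 9.67% of control cells with at least 500 endothelial CPM. It did not set them apart from their neighbours, since it was found in 71.2% of rod list, 95.2% of cone list and 57.5% of Fabp7 list cells, and was at 2404 CPM in the other control cells of cluster 4. Otx2 was at 2024 CPM, Neurod1 at 2618 CPM and Crx at 572 CPM. Rax, a homeobox gene of progenitors and photoreceptors, reached 830 CPM and the zinc finger gene Casz1 595 CPM. Isl1, Grm6 and Tfap2b were all at 0 UMIs, and a floor of 3 counts stands at 13.8 CPM in these 216939 UMIs. The rod genes Nrl (678 CPM, in 59 cells) and Nr2e3 (530 CPM, in 25 cells) were present, within the limit of the rule. Inhbb was at 263 CPM here and at 9.88 CPM in the other control members. Cluster 4 as a whole was led by Fabp7, a fatty acid binding protein gene, Epha8, Insm2 and Neurod4, and 5 markers of the Fabp7 Neurod4 Angpt1 precursors were among its top 20 genes, against 3 of the photoreceptor precursor markers. By its markers cluster 4 thus reached the 3 needed for either name, with more of the Fabp7 Neurod4 Angpt1 precursor markers. Fabp7 was at 2637 CPM in these members.

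The 36 control members in cluster 8 had bipolar genes together with Otx2, which is in both the photoreceptor lineage and the bipolar lists used here. Otx2 was at 1772 CPM, close to cluster 4, while Neurod1 was at 502 CPM and Rax at 20.5 CPM. Over all control cells of cluster 8 Gngt2 was at 221 CPM and Nrl at 38.9 CPM, against 2411 and 628 CPM in cluster 4. Isl1 was at 1408 CPM in 24 of the 36 cells. Sox4, a factor of newly born neurons, was at 4368 CPM, and Grm6, the glutamate receptor gene of ON bipolar cells, at 230 CPM. Prdm1 was at 200 CPM in 25 cells. Cluster 8 had a single bipolar marker among its top 20 genes and was left unnamed.

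The 18 control members in cluster 5 carried genes of cells leaving the progenitor state. Mybl1 was at 1145 CPM in 14 cells, Gadd45g, a stress and differentiation gene, at 1315 CPM in 12, and Hes5, a Notch target, at 1741 CPM. Neurod4 was at 2862 CPM, Rorb at 3970 CPM and Neurod1 at 1595 CPM, whereas Gngt2 was at 73.1 CPM. The cluster was neurogenic-like by 3 markers.

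The 13 control members in cluster 16 did not carry the precursor profile. Tfap2b was at 1855 CPM in 10 cells, Stmn2, a microtubule regulator of growing axons, at 2218 CPM in 12, and Cartpt, a neuropeptide precursor, at 2435 CPM in 6. The calcium binding protein gene Calb2 was at 1617 CPM in 2 cells. Otx2 was at 49.0 CPM and Prdm1 at 14 CPM, from 2 cells with 1 UMI each. Epha8 was found in 10 and Ccdc136 in 11 of these cells. Over both libraries 8 of the 16 members of cluster 16 had Epha8 and Ccdc136 as their only rule genes. Their median depth was 9495 UMIs, against 2599 in the cluster 4 members. The cluster was amacrine, horizontal or ganglion-like.

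The 12 control members in cluster 14, bipolar-like by 3 markers, had Otx2 at 1473 CPM and Sox4 at 3672 CPM with Isl1 at 72.7 CPM. Prdm1 was at 327 CPM in 11 of the 12. Lhx4, a homeobox gene of bipolar cells, was at 618 CPM and Epha7 at 418 CPM. A further 7 control members lay in cluster 15, bipolar-like and led by Grm6, Isl1 and Trpm1.

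**Figure D2:**
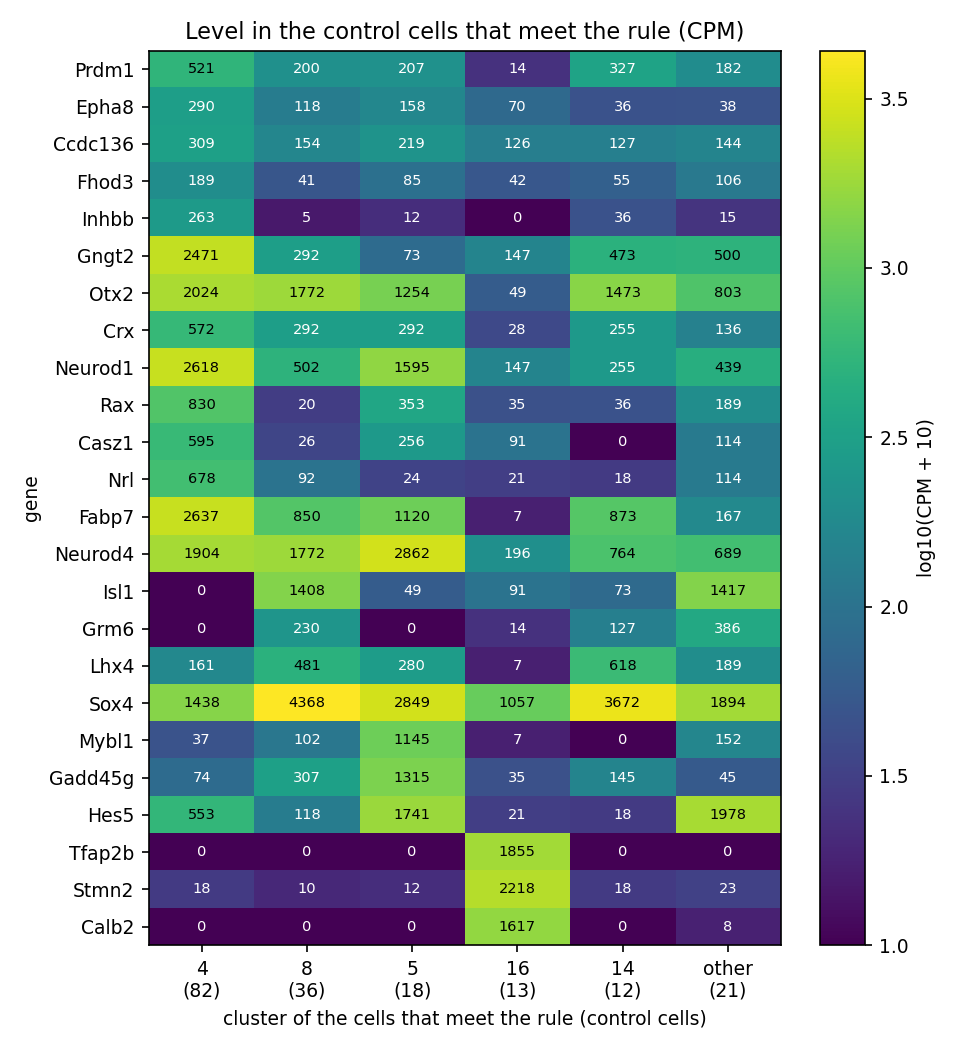
Level of 24 genes (rows) in the control members of each cluster (columns, number of cells in brackets), as CPM of summed UMIs printed in each cell and coloured by log10(CPM + 10). Gngt2 and Inhbb are highest in cluster 4, Isl1 is at 0 there and at 1408 in cluster 8, and Tfap2b is found in cluster 16 alone.

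The 4 Alk1 ECKO members in cluster 20 were mural-like, a class of contractile cells around vessels. They held 324 UMIs of Rgs5 and 62 of Kcnj8, and all 4 had Pdgfrb. None had a UMI of Otx2, Crx or Neurod1. All 4 had Prdm1 (5 UMIs in all) and 3 had Ccdc136. Their median depth was 20951 UMIs, and they made up 38.2% of the UMIs of all Alk1 ECKO members. The 3 Alk1 ECKO members in cluster 16 made up another 28.9%, and 1 of them held all 115 C1qa UMIs of those 3 cells. C1qa is a complement gene of microglia.

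The groups differed in the count of rule genes per cell, which the rule itself used, so this is a description. All control cells of cluster 4 had the 5 genes at a summed 1415 CPM, against 146 CPM in cluster 8 and 251 CPM in cluster 5. A higher count thus favours cluster 4 and its genes. Among members with 3 or more of the 5 genes, 51 of 65 lay in cluster 4 (78.5%, 66.5 to 87.7), against 35 of 142 with exactly 2 (24.6%, 17.8 to 32.6). In control, Gngt2 was at 533 CPM in members with 2 rule genes, 1702 CPM with 3 and 2124 CPM with 4 or more. Neurod1 was at 782, 1741 and 2478 CPM over the same steps. Isl1 went the other way, at 746, 173 and 0 CPM. Cells just outside, which met every other condition with 1 rule gene, had Gngt2 at 215 CPM and Neurod1 at 393 CPM. The median depth was 4373 UMIs at 2 genes, 2735 at 3 and 3077 at 4 or more.

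**Figure D3:**
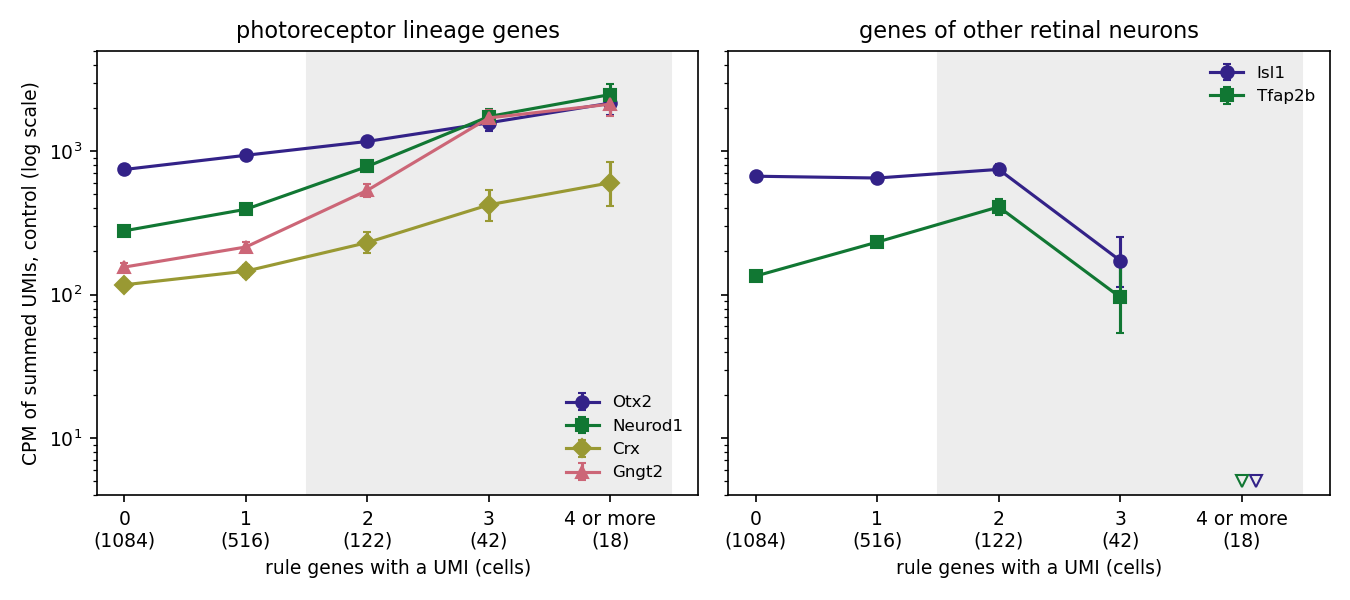
CPM of summed UMIs (y axis, log scale) in control cells that met all other conditions of the rule, by the number of rule genes with a UMI (x axis, cells in brackets), with exact Poisson 95% intervals. The grey area marks the members, and open triangles mark genes at 0 UMIs. Gngt2 stands at 533, 1702 and 2124 CPM over the 3 member steps, and Isl1 at 746, 173 and 0 CPM.

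Single genes of the rule differed in the share of their carriers in cluster 4. The rule and its excluded lists chose these carriers, so this is a description. Of the 58 members with Inhbb 50 lay in cluster 4 (86.2%, 74.6 to 93.9), against 36 of the 149 without it (24.2%, 17.5 to 31.8). Over all control cells Inhbb was at 176 CPM in cluster 4, 143 CPM in cluster 3 and 107 CPM in cluster 18. In clusters 3 and 18, described further on, the rod list set aside nearly all control cells with 2 or more rule genes. The share in cluster 4 was 45.1% for carriers of Prdm1, 48.6% for Epha8, 50.7% for Fhod3 and 32.5% for Ccdc136. The most common combination, Prdm1 with Ccdc136 alone, was found in 40 members, and 0 of them lay in cluster 4. Of these 40, 15 lay in cluster 8 and 6 in cluster 14. Epha8 with Ccdc136 alone was found in 28 members, 5 in cluster 4, 8 in cluster 5 and 8 in cluster 16. Prdm1 with Epha8 alone was found in 23, 6 of them in cluster 4 and 10 in cluster 8. Of the 9 members with Prdm1, Epha8, Ccdc136 and Inhbb but not Fhod3, 8 lay in cluster 4 and 1 in cluster 8.

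Members without Prdm1 differed from those with it in the genes of cluster 16. Prdm1 is a rule gene, so members without it had to carry at least 2 of the other rule genes, and this is a description. Of the 56 control members without Prdm1, 11 lay in cluster 16, against 2 of the 126 with it. Cartpt had 349 UMIs in the 56 and 2 in the 126, and Pou4f1, a ganglion cell factor, 44 and 0. Nefl, a neurofilament gene, had 76 and 2, and in Alk1 ECKO 27 UMIs in the 9 members without Prdm1 and 1 in the 16 with it. In the other direction Zfhx3 was at 590 CPM with and 77.2 CPM without a Prdm1 UMI in control. Zfhx3 was also among the leading genes of the cluster 8 control members, at 891 CPM against 243 CPM in the other control members. How far cluster make-up set this split was not tested. The mitotic genes Top2a and Cenpf had 38 and 25 UMIs in control members with Prdm1 and 0 in those without, and 71 and 80 against 0 in Alk1 ECKO. Of these Alk1 ECKO UMIs 97.2% and 95% came from the 4 mural-like members of cluster 20, all of which had Prdm1, and within clusters 4, 8 and 5 Top2a had 1 and 0 UMIs and Cenpf 0 and 1 in the control and Alk1 ECKO libraries.

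Most cells with 2 or more rule genes were not members. In control 2999 cells had 2 or more, of which 2504 had 3 or more rod list genes, 986 had 3 or more Fabp7 list genes, 205 had 3 or more cone list genes and 112 passed the endothelial limit. Clusters 3 and 18 were photoreceptor precursor-like, with 4 and 3 of the 5 markers of that class among their top 20 genes. In both, unlike cluster 4, it was the class with the most markers. Cluster 3 was led by Ccdc136 and Gngt2. The 748 control cells of cluster 3 had the 5 rule genes at a summed 1863 CPM, above the 1415 CPM of cluster 4. Of the 563 control cells there with 2 or more rule genes, 553 had 3 or more rod list genes, and 5 were members. Nrl was at 1406 CPM in cluster 3 and 628 CPM in cluster 4. In cluster 18, led by Insm2, Glcci1 and Fabp7, all 151 control cells with 2 or more rule genes were set aside through the rod list. In cluster 4, 436 of 521 such cells were set aside through the rod or the Fabp7 list, 250 of the 521 having 3 or more rod list genes and 304 having 3 or more Fabp7 list genes.

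**Figure D4:**
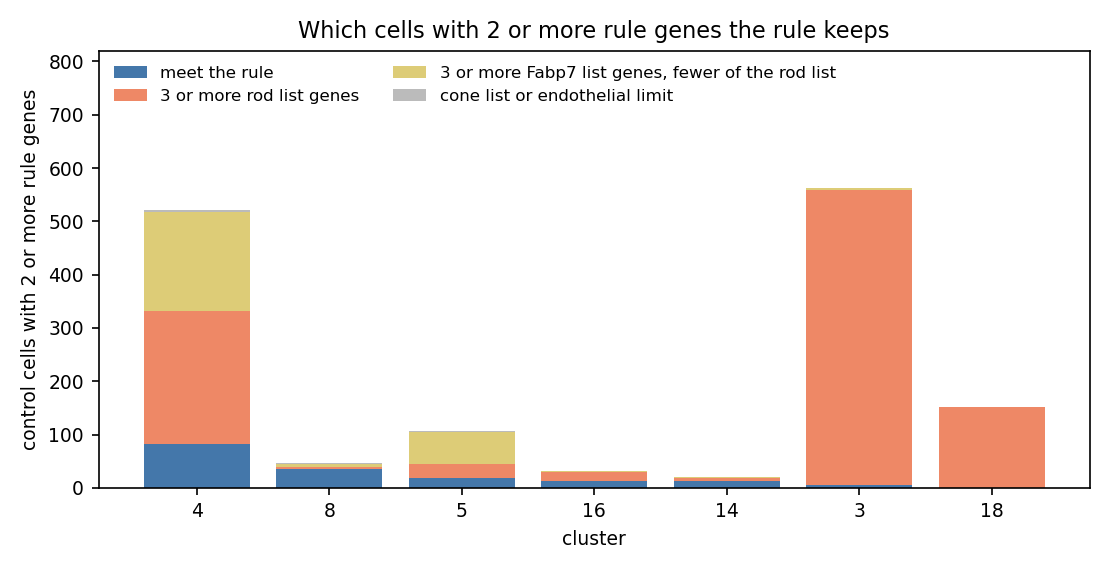
Control cells with 2 or more rule genes (y axis) in 7 clusters (x axis), split into members (blue), cells set aside by 3 or more rod list genes (orange), by 3 or more Fabp7 list genes (yellow), or by the cone list or endothelial limit (grey). Members are 82 of 521 in cluster 4, 5 of 563 in cluster 3 and 0 of 151 in cluster 18.

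Within cluster 4, the members were set beside the other cells. Over 7245 measured genes the 82 control members and the 598 other control cells had a median log2 ratio of -0.01, and 1737 genes (24.0%) lay beyond 1.5-fold. For 6 genes outside the rule and its excluded lists the whole interval did, a count that the 216939 UMIs of the members limit. It also did for Angpt1, Robo2, Sag, Pdc and Prph2 of the excluded lists, all lower in the members. Otx2 was at 2024 CPM in these members and 1732 CPM in the cluster as a whole. Fabp7, which the rule used, was at 2637 CPM in the members and 3962 CPM in the others, and Robo2 at 106 and 450 CPM. The median depth was 2599 UMIs in the members and 2935 in the remaining cells.

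The cells on either side of the rod list limit were compared next. Control members with 2 rod list genes had Gngt2 at 1630 CPM and Neurod1 at 1674 CPM. The cells just outside, with 3 rod list genes, had Gngt2 at 2593 CPM and Neurod1 at 2593 CPM. Of the control members 77 had 2 rod list genes and 120 had 2 Fabp7 list genes. Member shares were 2.82%, 2.84% and 2.51% of control cells with 1000 to 2000, 2000 to 4000 and 4000 to 8000 UMIs, and 1.21% of cells above.

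The genes that stood highest in the members relative to the rod list, cone list and Fabp7 list cells came from cluster 16. The first of the 15 were Snhg11 (137 CPM in control, 327 CPM in Alk1 ECKO), Nefl (94.6 and 129 CPM), Sncg (107 and 96.8 CPM) and Tfap2b (322 and 157 CPM). Of the control UMIs of these 4 genes 99.1%, 100%, 100% and 100% came from the 13 members in cluster 16. For Sncg all Alk1 ECKO UMIs came from 1 cell. Prkar2b, a protein kinase A subunit gene, with 44.3%, and Gucy1a1, a guanylate cyclase gene, with 31.1%, were the ones among the 15 with the smallest shares from cluster 16. None of the 15 was a photoreceptor gene of the lists used here.

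Eph receptors and ephrins guide the spacing and wiring of neurons by contact. Of 22 such genes 5 reached 30 UMIs over the members of both libraries. Epha5 was the highest, at 487 CPM in the control library and 134 CPM in the Alk1 ECKO library, above Epha8 itself. In control it was at 745 CPM in cluster 14, 609 CPM in cluster 8 and 415 CPM in cluster 4, so unlike Epha8 it was not highest in cluster 4. Epha7 was at 418 CPM in cluster 14 and 0 in cluster 4. Epha8 was at 290 CPM in cluster 4 and 36.4 CPM in cluster 14, from 2 cells.

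Inhbb forms activin B, a ligand that signals through type II receptors (Acvr2a, Acvr2b) to Smad2 and Smad3. Smad2 was at 217 CPM in the control library and 101 CPM in the Alk1 ECKO library. In cluster 4 it was at 396 CPM in the control members and 366 CPM in the other control cells, a log2 ratio of 0.11 (-0.23 to 0.44). A link to Inhbb was not tested. The shared mediator gene Smad4 was at 158 and 120 CPM. The receptor gene Acvr2a was at 55.8 and 9.22 CPM. Id3, a target of BMP signalling, was at 54.6 CPM in the control library and 489 CPM in the Alk1 ECKO library, and within clusters 4, 8 and 5 it had 3 and 1 UMIs. Of the 40 genes of this list 21 were measured.

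Notch signalling holds progenitors back from differentiation. Hes5 was at 669 CPM in the control library and 678 CPM in the Alk1 ECKO library, with 553 CPM in cluster 4, 118 CPM in cluster 8, 1741 CPM in cluster 5 and 18.2 CPM in cluster 14. Hes6, a gene of cells leaving the cycle, was at 416 and 207 CPM, and the Notch effector gene Rbpj at 172 and 124 CPM. Among thyroid hormone and retinoid genes, Thra was the highest at 445 and 277 CPM. The cone receptors Thrb and Rxrg had 6 and 3 UMIs over all control members.

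The libraries were then compared over all members. A gene was measured with at least 30 UMIs over both libraries, and ratios were taken relative to the median log2 ratio of the 5926 measured genes, which was -0.39. Beyond 1.5-fold, 1581 genes were higher in Alk1 ECKO (26.7%) and 1533 lower (25.9%), 52.5% in all. Beside these counts, 4 of the 25 Alk1 ECKO members and 0 of the 182 control members lay in cluster 20, and leaving out cluster 20 gave 1221 higher and 1390 lower. The 12 highest named genes were Lgals1, Arhgdib, Nid1, Mgp, Anxa1, Igfbp7, Bgn, Gng11, Tpm2, Ifitm3, Crip1 and Timp3. Mgp, the matrix Gla protein gene, had 0 UMIs in control and 194 in Alk1 ECKO, a log2 ratio of at least 7.94 against a floor of 3 counts in control, and Lgals1, which encodes galectin 1, had 2 and 230. From 90.4% to 100% of the Alk1 ECKO UMIs of these 12 genes came from the 4 mural-like members of cluster 20. The 14 genes of the mural list summed to 166 CPM in the control library and 4577 CPM in the Alk1 ECKO library. The 14 genes of the microglia list summed to 4.85 and 2858 CPM, with 98.9% of the latter in 1 cell.

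**Figure D5:**
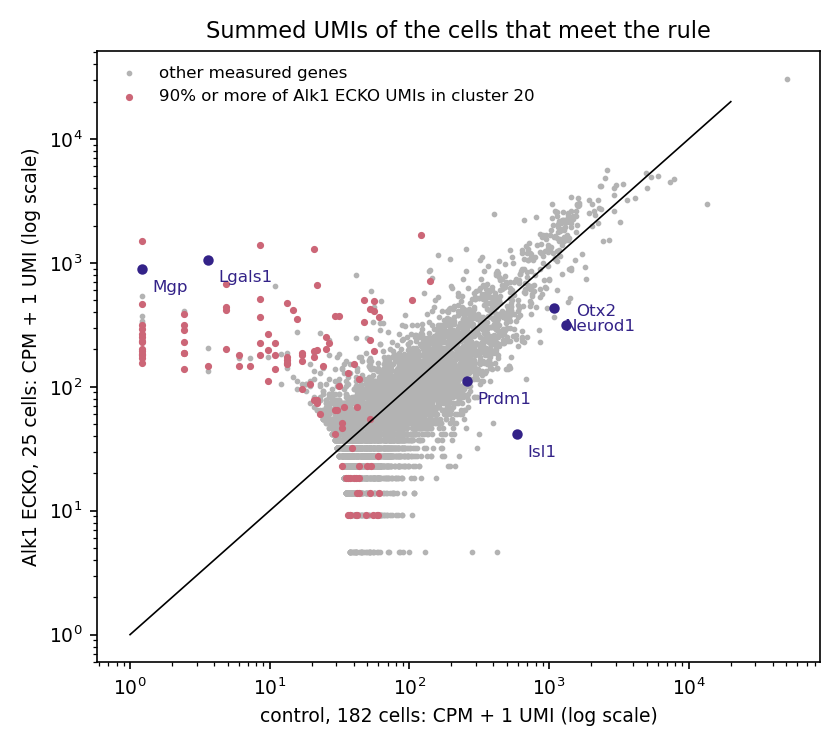
Level of each of 5926 measured genes in the summed control members (x axis) and Alk1 ECKO members (y axis), as CPM plus the value of 1 UMI on log scales, with the line of equality. The 117 genes with 90% or more of their Alk1 ECKO UMIs in cluster 20 are in red, Mgp and Lgals1 among them, and Isl1, Otx2 and Neurod1 lie below the line.

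Bipolar and photoreceptor gene lists were lower in Alk1 ECKO over all members. Isl1 was at 586 CPM in the control library and 36.9 CPM in the Alk1 ECKO library, a log2 ratio of -3.99 (-5.21 to -3.00). Cartpt had 351 and 0 UMIs and Calb2 232 and 0, with 348 and 231 of the control UMIs in the 13 members of cluster 16. The amacrine, horizontal and ganglion list as a whole had 9 genes higher and 6 lower of 18 measured (median 0.48), with 65.4% of its Alk1 ECKO UMIs in 1 cell. Of the 16 measured bipolar genes 16 were lower, with a median log2 ratio relative to all genes of -1.81. The bipolar-like clusters 14 and 15 gave 12 and 7 control members and 0 Alk1 ECKO members, and the part of this in the ratios was not tested. Of the 17 measured photoreceptor lineage factors, which include Prdm1 and Isl1, 12 were lower and 1 higher (median -0.95), and of 18 cilium and synapse genes 14 were lower (median -1.08). Of 28 oxidative phosphorylation genes 26 were higher (median 1.06), and of 13 measured G2/M genes all 13 (median 3.99), with 46.4% of the Alk1 ECKO UMIs of the G2/M list in 1 cell.

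A comparison within clusters 4, 8 and 5, which leaves out the mural-like and cluster 16 cells, rested on 136 control and 15 Alk1 ECKO members with 494356 and 56080 UMIs. Cluster 4 gave 82 of the former and 4 of the latter, and the part of this difference in the ratios was not tested. Of 3653 measured genes 21% were higher and 24.3% lower, 45.3% in all, around a median log2 ratio of -0.13. Isl1 was at 564 CPM in the control library and 143 CPM in the Alk1 ECKO library, a log2 ratio of -1.98 (-3.21 to -0.99). Otx2 was at 1796 and 1177 CPM, Neurod1 at 1612 and 1373 CPM, and Gngt2 at 1212 and 481 CPM. Of 15 measured photoreceptor lineage factors 8 were lower and 1 higher (median -0.67). Of 11 measured bipolar genes 5 were lower and 2 higher (median -0.48). Relative to the median gene the Neurod1 and Rorb ratios changed sign among members with at least 3 rule genes (0.15 and 0.13) and among members with a UMI of Otx2, Crx or Neurod1 (0.29 and 0.091).

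Most measured genes of the glycolysis and hypoxia list were higher in the Alk1 ECKO members of these 3 clusters. Of 22 measured genes 16 were higher and 2 lower, with a median of 1.18, against 12 higher and 3 lower of 26 over all members. Gapdh was at 912 CPM in the control library and 2550 CPM in the Alk1 ECKO library. Aldoa, which encodes the glycolytic enzyme aldolase A, was at 473 and 1623 CPM, Ldha, lactate dehydrogenase A, at 1270 and 2443 CPM, and Pkm, pyruvate kinase, at 829 and 1605 CPM. Vegfa, a hypoxia-induced growth factor for vessels, was at 93.1 and 143 CPM from 46 and 8 UMIs. Its log2 ratio was 0.62 (-0.68 to 1.71), which spanned no change. Higd1a of the same list was higher, at 154 and 499 CPM. Kdm3a (125 and 71.3 CPM) and Ddit4 (62.7 and 17.8 CPM) of this list were lower, with intervals that spanned no change. Of 28 oxidative phosphorylation genes 12 were higher and none lower (median 0.52), with Cox4i1 at 951 and 1320 CPM and Atp5a1 at 429 and 303 CPM. The immediate early genes, 11 of 13 higher over all members (median 2.03), were 1 higher and 2 lower of 8 here (median 0.11). Fos was at 144 and 756 CPM over all members and at 64.7 and 53.5 CPM within the 3 clusters.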

How the data were processed

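The authors deposited raw UMI counts per gene and barcode (32285 genes). Per the file headers these came from Cell Ranger 5.0.1. The submitters' processing notes give mm10 as the build, FastQC 0.11.9 and another Cell Ranger version, 6.1.1. Whether intronic reads were counted is not given in the sources used here. Cells had at least 1000 UMIs, at least 500 genes and 1 to 10% mitochondrial UMIs, 10347 of 14047 barcodes. Scrublet (scanpy 1.11.5) called 0 control and 2 Alk1 ECKO doublets and so had not worked, and no cell was removed in the values given; leaving out 505 control and 62 Alk1 ECKO cells with the highest scores was an alternative.

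Clusters were made over the cells of both libraries, uncorrected for library, from 3000 variable genes that held no gene of the rule, after log normalisation (30 components, 15 neighbours, leidenalg 0.10.2 at resolution 1.0). A cluster was named from at least 3 markers among its top 20 genes, ranked by CPM with 10 added to both sides. UMIs were summed over cells per library. Intervals are exact Poisson for a sum, Clopper-Pearson for a share and conditional binomial for a ratio (scipy 1.17.1), checked on simulated data. Counts at 0 used a floor of 3 counts.

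The members and gene lists were chosen with earlier results of these data known. Genes were named by rule: those of the rule and the marker lists; in each gene list the 4 highest and up to 3 at either end of the ratio; the 15 highest against the rod, cone and Fabp7 list cells; the 12 at either end of the ratio with at least 50 CPM and an interval beyond 1.5-fold; and 8 at either end of the split by Prdm1. Leading genes of the member groups, and the remaining genes named there, were taken after the clusters had been seen. One gene of the marker lists is not reported here by name; it stayed in the lists' counts and in the naming of clusters. Gene positions are from GENCODE vM21 (mm10).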

Additional observations from a re-analysis of the deposited data

How the results depend on the processing

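No paired analysis was possible because each genotype had 1 library. With at least 3 rule genes, members were 0.791% of control and 0.181% of Alk1 ECKO cells, 78.5% lay in cluster 4, and 316 genes were higher and 383 lower. With fewer than 2 genes of each excluded list the values were 0.554%, 0.362%, 15.4%, 765 and 727. Within clusters 4, 8 and 5 they were 1.79%, 0.543%, 57.0%, 766 and 888. Higher and lower genes numbered 466 and 505 with cells thinned to 1500 UMIs, 907 and 2422 without centring on the median gene, 538 and 490 among genes with at least 100 UMIs, and 3303 and 3265 among genes with at least 1 UMI in each library. Among members with a UMI of Otx2, Crx or Neurod1, 942 genes were higher. At Leiden resolution 2.0, tried after seeing the data, the cluster with the most members held 34.3% of them, and at 0.5 it held 44.4%. Leaving out cluster 20, also chosen after seeing the data, gave 1221 and 1390 genes.

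Some log2 ratios relative to the median gene changed sign. With at least 3 rule genes they were 0.37 for the cilium and synapse list, 0.22 for Fhod3, 0.15 for Neurod1, 0.13 for Rorb and 0.67 for Magi1. Within clusters 4, 8 and 5 Neurod4 was at 0.057. With a UMI of Otx2, Crx or Neurod1 they were 0.055 for the rod list and 0.052 for the Eph list, 0.29 for Neurod1, 0.091 for Rorb and 0.17 for Neurod4. The G1/S list was at -0.51 without members with 3 or more G2/M genes, and thinning gave 0.13 for Fam135b. The cause was not tested. Leaving out barcodes found in both libraries removed 0 members. Over the other alternatives 226 of 257 list medians and 334 of 462 single gene ratios stayed within their counting error. Gene ratios with a library at 0 were left out where its floor gave no bound. The 25 Alk1 ECKO members, 5 of which hold most of the UMIs, limit every ratio between the libraries.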
